A study of Saccharomyces cerevisiae with 3 samples.

Results

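Pol I occupancy over the 5′ region of 18S rRNA was examined at 600 of the 6858 positions of the 35S gene in the deposited table. The members were chosen by place alone, as the first 600 of the 1800 nucleotides of mature 18S. Positions are counted from the start of the 35S transcript, so the region ends at position 1300. In assembly R64 they lie on chromosome XII from 466270 to 466869, on the minus strand, within *RDN18-2* and its precursor *RDN37-2*. The assembly holds a second copy, *RDN18-1*, and how reads were divided between the copies is not given in the sources used here.

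The mutant strain was *hmo1Δ* yeast, in which *HMO1* was replaced with a *URA4* marker, with 3 replicate NET-seq libraries. It was set against wild-type (WT) yeast. Both strains carried a His and HA tag on *RPA135*, a subunit gene of RNA polymerase I (Pol I), and both were grown in YEPD at 30 °C. The single WT libraries belong to another series and were not used, so WT is given as the authors' deposited median. The coefficient of variation that they deposited is the only measure of WT spread used here. A difference of strain and a difference of library series therefore cannot be told apart. Per the methods each *hmo1Δ* replicate came from its own culture. *HMO1* transcripts themselves were not analysed here.

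NET-seq sequences the 3′ ends of RNAs that are still held by the polymerase, so a read from such an RNA marks where Pol I stood. Pol I makes a single 35S precursor, from which the external and internal spacers are removed to release 18S, 5.8S and 25S. 18S is the RNA of the small ribosomal subunit, and its 5′ end is set by a cut at the junction with ETS1, the 5′ external spacer. The first nucleotides after that cut base-pair with the U3 snoRNA during early assembly, and the sequence that follows folds into the 5′ domain of the subunit. Hmo1 is a high mobility group box protein that covers actively transcribed rDNA, and the comparison asks how Pol I is distributed without it. The authors report from earlier work that finished rRNA contaminates such libraries, and they analysed the spacers separately for that reason. The region lies within mature 18S, and the part of finished rRNA in its values was not tested.

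Occupancy is given in RPM, the reads at a position per 1000000 reads of that library on the 35S gene up to the T1 terminator. RPM is relative to each library's own total, so neither fewer cells nor less Pol I per cell over the whole gene would show in it. A lower RPM in the region is a lower share of the reads on the gene, with a higher share elsewhere in it. Nearly all values were whole multiples of what 1 read is worth, and by that step replicates 1, 2 and 3 held 383487, 201480 and 288870 reads in the region. The median position held 467, 250.5 and 337.5 reads, which gives counting errors of 4.63%, 6.32% and 5.44%. At the position with fewest reads, 20 to 44 reads, the counting error reached 15.1% to 22.4%. A count of 0 would allow up to 0.811, 1.51 and 1.07 RPM (3 reads), and no position of the region was listed at 0.

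The start of 18S and the stretches around the largest rises and falls are shown here, since the results turn on them. They are printed 5′ to 3′ as RNA, from the base column of the deposited table, with coordinates of the minus strand in R64. The last base incorporated at a position is taken to be the base listed there. Capitals mark positions called raised or lowered in *hmo1Δ* by the rule given further on.
first 31 nucleotides of 18S, chrXII:466839-466869: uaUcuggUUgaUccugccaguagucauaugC
positions 765 to 795, chrXII:466775-466805: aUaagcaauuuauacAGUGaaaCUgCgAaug
positions 801 to 831, chrXII:466739-466769: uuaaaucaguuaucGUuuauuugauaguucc
positions 887 to 917, chrXII:466653-466683: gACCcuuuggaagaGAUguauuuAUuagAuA
positions 921 to 951, chrXII:466619-466649: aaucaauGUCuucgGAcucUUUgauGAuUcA
positions 962 to 992, chrXII:466578-466608: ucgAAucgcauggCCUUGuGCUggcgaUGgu
positions 1021 to 1051, chrXII:466519-466549: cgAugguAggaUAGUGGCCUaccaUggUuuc
positions 1048 to 1078, chrXII:466492-466522: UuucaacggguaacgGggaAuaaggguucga
positions 1166 to 1196, chrXII:466374-466404: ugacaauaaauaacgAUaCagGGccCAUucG
Raised among the capitals are positions 703, 708, 709 and 712 at the start of 18S, 787 and 788, 901 to 903, 935 and 936, 975 to 979, 981 to 983, 989 and 990, 1032 to 1040, 1045, 1048, 1067, 1187, 1188, 1192, 1193 and 1196. The other capitals are lowered.

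The *hmo1Δ* replicates resembled each other more than they resembled WT. Over the 600 positions, the Spearman coefficient was 0.966 for replicates 1 and 2, 0.981 for replicates 1 and 3 and 0.968 for replicates 2 and 3. With the WT median it was 0.846, 0.795 and 0.873 for replicates 1, 2 and 3. Neighbouring positions share a library, so these are descriptions without a *p*-value. Moving the WT profile by 1 position in either direction lowered the mean coefficient to 0.442 and 0.473, so the profiles lay in register. At the median position the *hmo1Δ* replicates had a coefficient of variation of 10.6%, and the authors' WT column had 8.56%. Pairs of replicates differed by more than counting noise, with a chi-square of 6.04 to 7.45 for each degree of freedom.

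**Figure D1:**
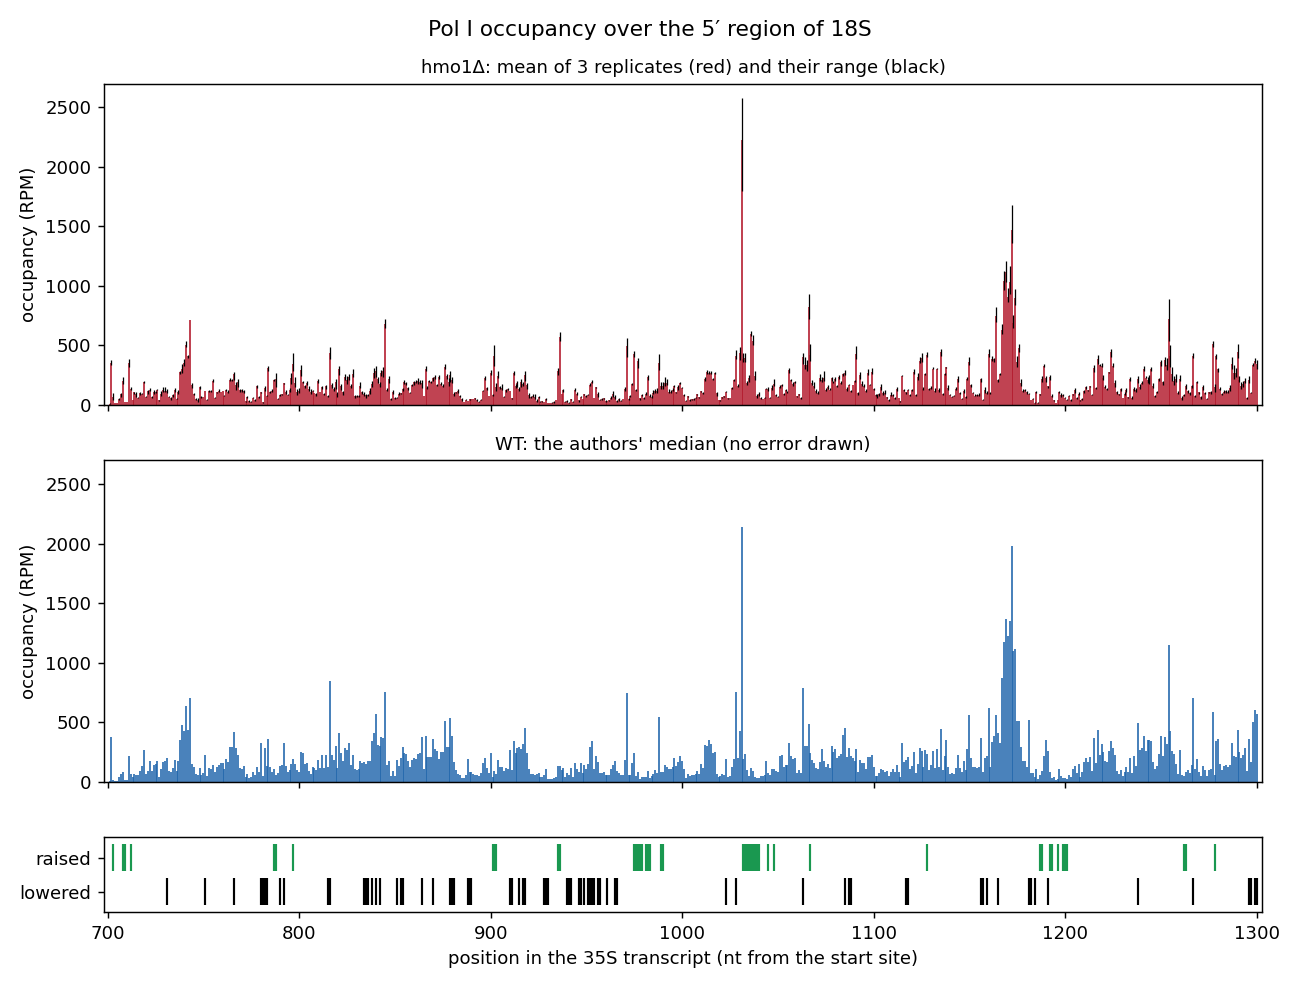
Pol I occupancy in RPM at the first 600 positions of 18S, with the *hmo1Δ* mean and range of 3 replicates above and the authors' WT median below. Ticks at the foot mark the 46 raised and 73 lowered positions. Both strains share the single high peak at position 1031 and the broad plateau around positions 1167 to 1174.

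The highest peak of the region stood at position 1031, an A, in both strains. It had 1793, 2298 and 2580 RPM in *hmo1Δ* replicates 1, 2 and 3, against 2140 RPM in WT. The replicates fell on both sides of WT, and the log2 ratio of 0.04 ± 0.27 (SD, n = 3) was within their spread. The peak stood 16.8-fold above its local median, that of the positions within 50 on either side, in *hmo1Δ* and 17.6-fold in WT.

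The second feature was a plateau on the sequence gacaauaa at positions 1167 to 1174, all of them at least 6 times the region's median in WT. Summed over these 8 positions, *hmo1Δ* had 7314, 7445 and 8577 RPM, against 10187 RPM in WT. All 3 replicates were below WT, with a log2 ratio of -0.39 ± 0.13 (SD, n = 3). The plateau held 7.58% ± 0.678 of the region's occupancy in *hmo1Δ* (SD, n = 3) and 8.78% in WT. Its summit, position 1172, had 1357, 1363 and 1682 RPM in *hmo1Δ* and 1977 RPM in WT. At that summit the replicate 1 value was not a whole number of reads. Of the 8 highest positions in each strain, 6 were the same positions of this plateau, 1168 to 1172 and 1174.

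The other high positions differed in their fate. Position 743, an A, had 716, 710 and 713 RPM in *hmo1Δ* and 706 RPM in WT, a log2 ratio of 0.01 ± 0.01 (SD, n = 3). The authors' coefficient of variation for WT was 19.0% at that position, so the difference was far inside the WT spread. Position 1254, a C, had 888, 540 and 733 RPM in *hmo1Δ* against 1147 RPM in WT, and the authors' WT coefficient of variation was 26.6%. Position 1066, an A, was the eighth highest in *hmo1Δ*, with 717, 929 and 827 RPM against 484 RPM in WT. At 1066 all replicates lay above WT, with a log2 ratio of 0.76 ± 0.19 (SD, n = 3).

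Peaks were taken as positions that were the highest within 5 positions on each side and at least 3 times their local median. The *hmo1Δ* median had 17 such peaks and the WT median 24. Single *hmo1Δ* replicates had 16, 17 and 17, and pairs of replicates shared 64.7% to 93.8% of their peaks within 1 position. *hmo1Δ* and WT shared 12 peaks, which is 70.6% of the *hmo1Δ* list and 12 of the 24 in the WT list. In the next 600 nucleotides, the middle region of 18S, the same rule gave 18 peaks in *hmo1Δ* and 17 in WT. In the last 600, the 3′ region, it gave 23 in *hmo1Δ* and 17 in WT, and these differences in number were not tested.

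The 5 peaks met only in the *hmo1Δ* median were at positions 902, 936, 1066, 1135 and 1224. Positions 902 and 936 were called raised. At position 1135, with 440 ± 25.6 RPM in *hmo1Δ* (SD, n = 3) and 445 RPM in WT, the local median was the lower one in *hmo1Δ*. The 12 peaks met only in WT were at 719, 766, 879, 953, 1014, 1063, 1085, 1150, 1160, 1181, 1238 and 1267. All 3 *hmo1Δ* replicates lay below WT at each of these 12 (53.7% of all 600 positions were below), and 8 of them were called lowered by the rule given further on (12.2% of all 600). Having been picked as peaks of WT alone, they were likely to be lower in *hmo1Δ*, and nothing is read from these counts. Among the 12 shared peaks, all 3 replicates were below WT at 8 and above it at 2.

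The base under a peak was most often A. In *hmo1Δ*, 11 of 17 peaks stood on an A and none on a G, and in WT 16 of 24 stood on an A and 1 on a G. A made up 29.5% of the 600 bases and G 22.8%. The base before the peak was a G at 11 of 17 peaks in *hmo1Δ* and 11 of 24 in WT. The 30 highest positions held 20.9% ± 1.08 of the region's occupancy in *hmo1Δ* (SD, n = 3) and 22.5% in WT.

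Troughs were runs of at least 5 positions at or below the profile's own median over the region divided by 3. The *hmo1Δ* median had 1 such run, at positions 930 to 934, where the mean per position was 24.3, 19.9 and 21.8 RPM in replicates 1, 2 and 3 and 25.2 RPM in WT. Its sequence is cuucg, and it lies directly before the raised positions 935 and 936. Over this trough the log2 ratio was -0.20 ± 0.15 (SD, n = 3), and the replicates held 449, 197 and 307 reads. WT had the same run and a second one, at positions 1038 to 1042. There *hmo1Δ* averaged 99.8, 116 and 87.7 RPM per position against 38.4 RPM in WT, a log2 ratio of 1.39 ± 0.20 (SD, n = 3). All *hmo1Δ* replicates thus averaged above WT over this second run. Having been picked as a trough of WT alone, it was likely to be higher in *hmo1Δ*. It includes position 1038, among the largest rises, and the raised positions in it end at 1040.

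The lowest single position in both strains was the first nucleotide of 18S. It had 11.9, 10.6 and 7.12 RPM in *hmo1Δ* and 6.10 RPM in WT, with 44, 21 and 20 reads. The next position, 702, was a peak of 376, 332 and 333 RPM in *hmo1Δ* against 375 RPM in WT. Position 703 then had 95.1, 53.4 and 37.0 RPM in *hmo1Δ* and 11.6 RPM in WT. It had the widest spread among the positions named here, with a log2 ratio of 2.21 ± 0.68 (SD, n = 3).

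Summed over the 600 positions, occupancy was 103635, 101537 and 102791 RPM in *hmo1Δ* against 116060 RPM in WT. All 3 replicates were below WT and close to each other, at a log2 ratio of -0.18 ± 0.01 (SD, n = 3), or 0.884 of WT. The region held 10.3% ± 0.106 of the reads up to T1 in *hmo1Δ* (SD, n = 3) and 11.6% of the WT median profile. The exact two-sided sign-flip permutation test over the 3 replicates gave *p* = 0.25, the smallest that 3 replicates allow. When each profile was scaled to its own sum over 18S, the log2 ratio was -0.02 ± 0.02, and over the rest of 18S the deposited values gave -0.14 ± 0.02.

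The log2 ratio was -0.20 in the middle region of 18S and -0.06 in the 3′ region. The 5′ region minus the middle region gave 0.02 ± 0.01 (SD, n = 3), and minus the 3′ region -0.11 ± 0.06, in the same direction in 3 of 3 replicates each time. The exact sign-flip test gave *p* = 0.25 for both, again the smallest possible.

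Position by position, all 3 *hmo1Δ* replicates were below the WT median at 322 of 600 positions (53.7%) and above it at 165 (27.5%). Over the whole 35S gene the shares were 37.2% below and 44.2% above. The middle region had 54.0% below and 31.3% above, and the 3′ region 41.8% below and 38.8% above. A position was called raised where all 3 replicates were at least 1.5 times the WT median, and lowered where all were at most that median divided by 1.5, on RPM + 1 and with a median of at least 10 RPM in *hmo1Δ* or WT. All 600 positions passed the minimum. By this rule 46 positions (7.67%) were raised, where 20.2% of the gene was, and 73 (12.2%) were lowered, where 7.39% of the gene was. In the rest of 18S, 173 of 1200 positions were raised and 151 lowered. Positions 1296 and 766 lay just inside the rule and 1243 and 883 just outside it. Scaled to the sum over 18S the split was 64 raised and 41 lowered, and scaled to the median position of the gene it was 36 and 116. With a fold of 2 in place of 1.5, 20 positions were raised and 11 lowered, so the balance between the directions turned with the threshold.

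Raised positions were gathered in few places. With gaps of up to 3 positions allowed, the 46 raised positions formed 16 groups, of which 5 were single positions. The 73 lowered positions formed 31 groups, of which 13 were single. A lowered position lay within 10 positions of 63.0% of the raised positions, against 75.7% of all 600. A raised position lay within 10 of 35.6% of the lowered positions, against 46.7% of all 600.

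The largest group of raised positions ran without a gap from 1032 to 1040, directly after the shared peak at 1031. Position 1036, a G, had 578, 623 and 587 RPM in *hmo1Δ* against 115 RPM in WT, a log2 ratio of 2.36 ± 0.06 (SD, n = 3). Position 1037, also a G, had 499, 587 and 516 RPM against 89.3 RPM, a log2 ratio of 2.56 ± 0.12. Position 1038, a C, had 226, 285 and 206 RPM against 39.7 RPM, a log2 ratio of 2.55 ± 0.24. Positions 1035 to 1038 together had 1536, 1742 and 1502 RPM in *hmo1Δ* against 295 RPM in WT, a fold of 5.41. Every *hmo1Δ* replicate exceeded WT at each of them, which the rule for raised positions requires. The replicates lay close together at 1036 and 1037 and were more spread at 1038. Position 1032, next to the shared peak, had 359, 433 and 365 RPM in *hmo1Δ* against 189 RPM.

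Upstream of the same peak the direction was opposite. Position 1028, an A, had 384, 399 and 457 RPM in *hmo1Δ* against 757 RPM in WT, a log2 ratio of -0.88 ± 0.13 (SD, n = 3). From 1026 to 1040, the summed occupancy was 5629, 6654 and 6593 RPM in *hmo1Δ* and 4702 RPM in WT, a log2 ratio of 0.42 ± 0.14. The stretch thus gained occupancy as a whole, with the fall 3 positions before the peak and the rises after it.

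**Figure D2:**
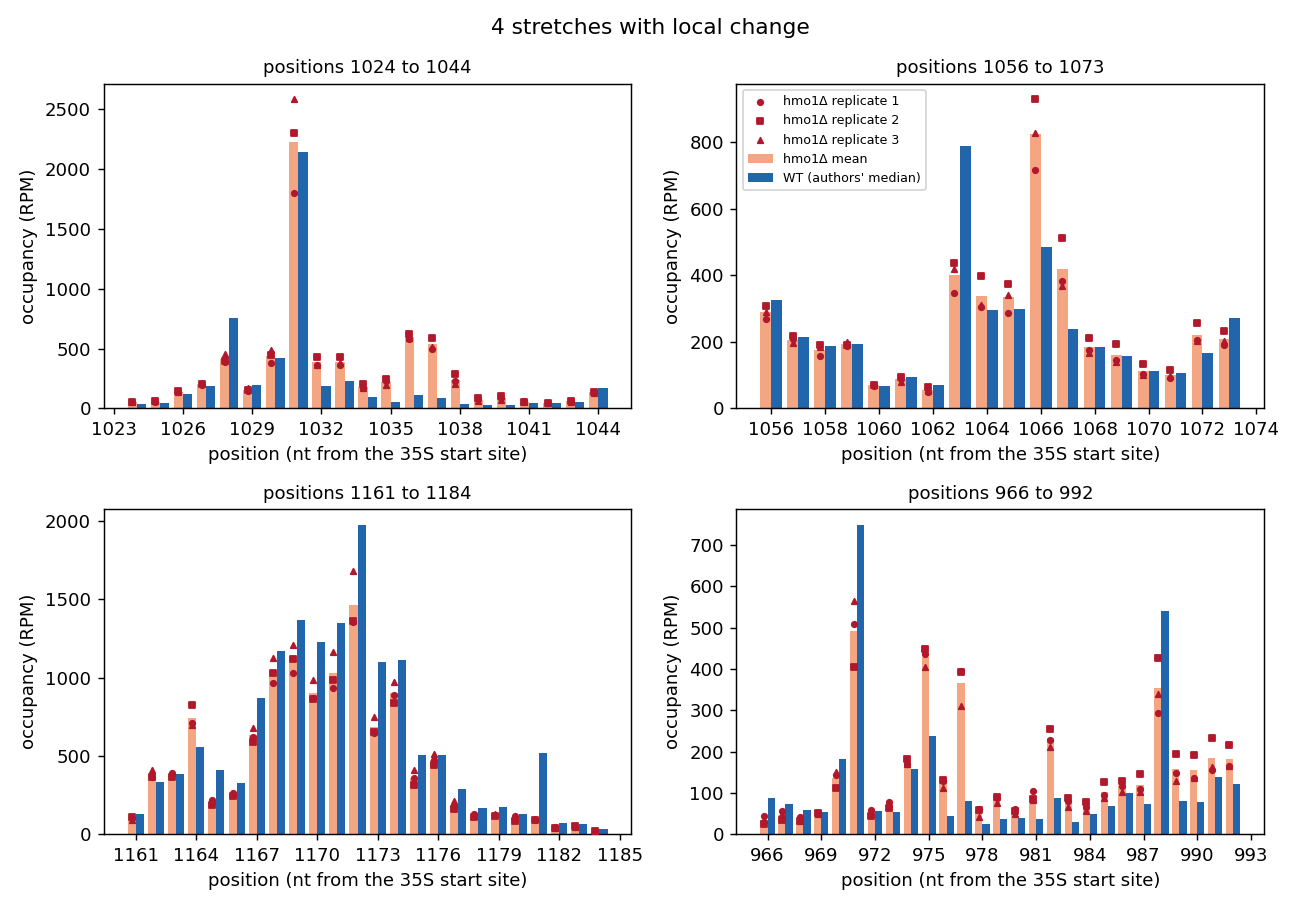
Occupancy in RPM at 4 stretches, with the *hmo1Δ* mean (light bars) and its 3 replicates (points) left of the authors' WT median (dark bars) at each position. Around position 1031 the rises lie after the shared peak, at 1063 and 1066 a fall and a higher level lie 3 positions apart, and position 1181 is a WT peak with no counterpart in *hmo1Δ*.

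A fall and a higher level also lay close together in the G-rich stretch around position 1063. Position 1063, a G, had 346, 437 and 418 RPM in *hmo1Δ* against 788 RPM in WT, a log2 ratio of -0.98 ± 0.18 (SD, n = 3). Position 1066, described among the high positions, was the peak of the stretch in *hmo1Δ*, while 1063 was the peak in WT. The next position, 1067, was called raised. From 1058 to 1071, 5 positions beyond either peak, the summed log2 ratio was 0.06 ± 0.17 (SD, n = 3), within the spread between replicates. The order of the 2 positions thus differed between strains without a separable difference in the total.

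The second largest group of raised positions covered 8 positions from 975 to 983, on the sequence ccuugugcu. Position 977, a U, had 396, 392 and 311 RPM in *hmo1Δ* and 81.5 RPM in WT, a log2 ratio of 2.15 ± 0.20 (SD, n = 3). Position 975, a C, had 436, 449 and 404 RPM against 237 RPM, a log2 ratio of 0.85 ± 0.08. The peaks on either side went the other way. Position 971 had 509, 404 and 564 RPM in *hmo1Δ* against 749 RPM, and position 988 had 293, 426 and 339 RPM against 539 RPM. Neither was called lowered.

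Other large rises stood in short groups of raised positions, 935 to 936 and 901 to 903. Position 936, an A that ends the sequence cuucgga, had 540, 615 and 547 RPM in *hmo1Δ* against 127 RPM in WT. Its log2 ratio was 2.14 ± 0.10 (SD, n = 3), while the lowered positions 928 to 930 and 940 to 942 lay on both sides of it. Position 902, an A in the sequence agagaug, had 403, 501 and 330 RPM against 88.7 RPM, a log2 ratio of 2.18 ± 0.30. In both cases every replicate was more than 3 times the WT median.

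The deepest falls were at A residues. Position 888 had 31.3, 28.7 and 32.7 RPM in *hmo1Δ* against 193 RPM in WT, a log2 ratio of -2.61 ± 0.09 (SD, n = 3). Position 1181 had 90.5, 89.2 and 100.3 RPM against 517 RPM, a log2 ratio of -2.46 ± 0.09. These are 0.160 and 0.181 of WT, and the *hmo1Δ* replicates were nearly equal at both. Position 941, a U, and position 780, an A, followed with log2 ratios of -1.59 ± 0.40 and -1.58 ± 0.07 (SD, n = 3). At 780, *hmo1Δ* had 111.6, 101.3 and 107.8 RPM against 321 RPM.

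Further large falls in RPM were at high positions of the WT profile. Position 816, a U, had 447, 387 and 484 RPM in *hmo1Δ* against 844 RPM in WT, a log2 ratio of -0.95 ± 0.16 (SD, n = 3). Positions 840, 879, 1238 and 1267, all A, were lowered with log2 ratios from -1.20 at 1238 to -0.77 at 1267. The *hmo1Δ* mean at these was 216 to 409 RPM and WT 496 to 700 RPM. No replicate reached the WT median, which the rule for lowered positions requires.

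In windows of 25 positions, 13 of 24 windows (54.2%) were lower in *hmo1Δ* and 2 (8.33%) were higher. A window was called where all 3 replicates lay on 1 side of WT and the mean log2 ratio exceeded 2 SD. Over the gene 24.5% of such windows were called lower and 38.3% higher. The higher windows were 1026 to 1050 (0.39 ± 0.12, SD, n = 3) and 976 to 1000 (0.33 ± 0.17). Next came the first window of 18S with 0.17 ± 0.10, which was not called. Without replicate 1 the share of windows called higher was 4.17%, and without replicate 3 it was 16.7%. With profiles scaled to the median position of the gene it was 0%, and scaled to the sum over 18S it was 20.8%, with 16.7% called lower. The lowest windows were 951 to 975 with -0.48 ± 0.12, 876 to 900 with -0.46 ± 0.08 and 851 to 875 with -0.43 ± 0.06, and they did not separate from each other.

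**Figure D3:**
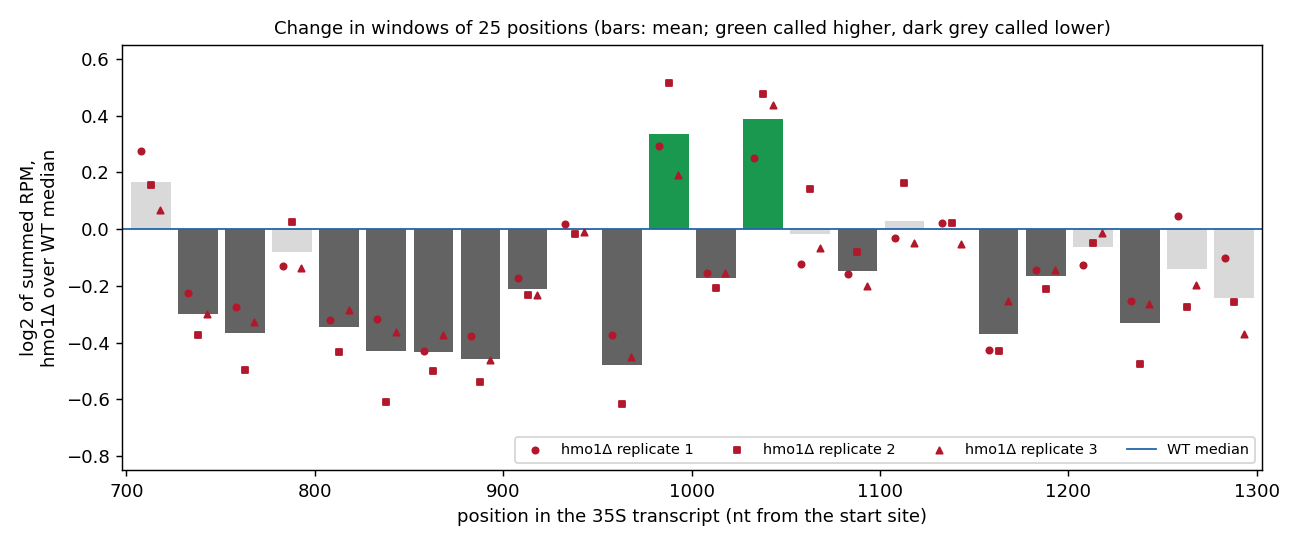
Log2 ratio of summed RPM, *hmo1Δ* over the authors' WT median, in 24 windows of 25 positions over the 5′ region of 18S. Bars are the mean of 3 replicates and points the single replicates. Windows from 801 to 925 are lower throughout, and 976 to 1000 and 1026 to 1050 are the 2 called higher.

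The change was not even along the region. The first 200 positions of 18S had a log2 ratio of -0.31 ± 0.06 (SD, n = 3), positions 901 to 1100 one of -0.0039 ± 0.05, and positions 1101 to 1300 one of -0.21 ± 0.03. The first of these held 7 raised and 28 lowered positions, the second 27 and 29, and the third 12 and 16. From 801 to 900 no position was raised and 19 of 100 were lowered, against 7.67% and 12.2% of all 600 positions. That stretch is 38% U and 16% G, where the region is 28.5% U and 22.8% G. Positions 901 to 1000 are nearly alike, with 37% U and 19% G, but held 15 raised and 23 lowered positions. Their log2 ratio was -0.10 ± 0.04 (SD, n = 3).

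Change went with the G content of the last 10 bases incorporated. Of the 120 positions with 4 or more G among the 10 bases that end there, 21 (17.5%) were raised and 3 (2.50%) lowered. Of the 191 positions with 0 or 1 G, none was raised and 40 (20.9%) were lowered, where 12.2% of all 600 positions were lowered. Neighbouring positions share most of their 10 bases, so these counts are not of separate sites. The 21 include positions 1032 to 1039 of an unbroken run, and 981, 982, 989 and 990. The median log2(RPM + 1) ratio was 0.18 ± 0.10 (SD, n = 3) in the G-rich group and -0.42 ± 0.10 in the G-poor group, against -0.19 ± 0.04 over all 600 positions. In the rest of 18S the medians were 0.26 ± 0.10 and -0.23 ± 0.07 for the same groups. The share raised in the G-rich group is above the region's own 7.67% but near the 20.2% of the whole gene. In the rest of 18S, 25.4% of the G-rich group was raised, against 14.4% of all positions there. Of the G-poor group there, 16 of 221 positions (7.24%) were raised and 38 (17.2%) lowered, where 12.6% of all positions there were lowered.

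**Figure D4:**
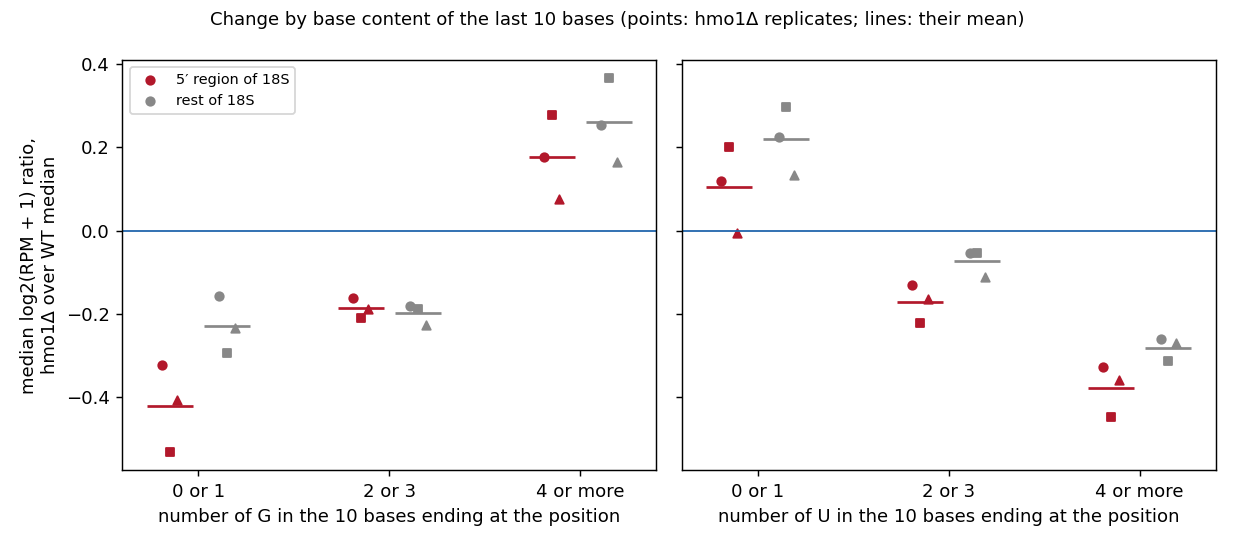
Median log2(RPM + 1) ratio, *hmo1Δ* over the authors' WT median, of positions grouped by the number of G (left) or U (right) in the 10 bases that end at the position. Points are the 3 *hmo1Δ* replicates and lines their mean. In the 5′ region of 18S the median is -0.42 with 0 or 1 G and 0.18 with 4 or more G.

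Across the 600 positions, the correlation of the log2 ratio with the number of G was 0.306, 0.436 and 0.385 in replicates 1, 2 and 3, and 0.276 ± 0.030 (SD, n = 3) in the rest of 18S. With the number of U it was -0.208 ± 0.042 in the region and -0.267 ± 0.023 in the rest of 18S. Windows of 10 bases overlap and share libraries, so these coefficients describe the profile and carry no *p*-value. Positions with 4 or more U had a median log2 ratio of -0.38 ± 0.06 (SD, n = 3), and 38 of 202 (18.8%) were lowered, against 12.2% of all 600 positions. With the number of A the correlation was -0.158 ± 0.035 in the region and -0.098 ± 0.038 in the rest of 18S (SD, n = 3). Of the 90 positions with 0 or 1 A, 19 (21.1%) were raised and 7 (7.78%) lowered, where 7.67% of all 600 positions were raised. That share raised is near the 20.2% of the whole gene. In the rest of 18S, 41 of 304 such positions (13.5%) were raised, against 14.4% of all positions there, so no excess was seen there. The G, U and A contents are linked, since they share the same 10 bases.

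Levels also differed with the single base in both strains. Positions after a G had a median of 205 ± 6.60 RPM in *hmo1Δ* (SD, n = 3) and 199 RPM in WT, a median log2 ratio of 0.0015 ± 0.02. Positions after a U had 99.6 ± 4.79 RPM in *hmo1Δ* and 114 RPM in WT, with a median log2 ratio of -0.31 ± 0.05. For positions that are an A, the medians were 172 ± 9.66 RPM in *hmo1Δ* and 209 RPM in WT, and 33 of 177 (18.6%) were lowered while 6 (3.39%) were raised. Of all 600 positions, 12.2% were lowered and 7.67% raised. In the rest of 18S, 54 of 305 A positions (17.7%) were lowered and 37 (12.1%) raised, against 12.6% and 14.4% of all positions there.

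Both of the deepest falls ended the trinucleotide CGA, which was singled out after the values were seen, from the 64 trinucleotides that can end at a position. CGA ended at 8 positions of the region (1.33%), namely 792, 888, 965, 988, 1023, 1078, 1181 and 1238. All 3 *hmo1Δ* replicates were below WT at each of them, where 53.7% of all 600 positions were below. Of the 8, 6 were called lowered, where 12.2% of all 600 were. These 6 include 888 and 1181, the falls that led to the choice of CGA. Their log2 ratios ran from -2.61 to -0.41, with a median of -1.04. In the rest of 18S the median over 16 CGA positions was -0.34, and 3 were lowered, where 12.6% of all positions there were. In the rest of the 35S gene it was -0.19 over 74 positions, with 13 lowered and 7 raised. Over the whole gene 7.39% of positions were lowered and 20.2% raised. The trinucleotide GGU, also chosen after the fact, ended at 12 positions (2.00%), with a median log2 ratio of 0.48. Of these, 5 were raised, where 7.67% of all 600 were, and none was lowered. In the rest of the gene 53 of 117 GGU positions were raised and 2 lowered, with a median log2 ratio of 0.60.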

How the data were processed

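RNA held by HA-tagged Pol I was sequenced from 3 *hmo1Δ* cultures. Per the labels and methods, the authors removed duplicate reads by UMI with fqtrim, trimmed with cutadapt 3.4, used STAR 2.7.1a for alignment to R64 and took per-base coverage from bedtools 2.28.0. The deposited *hmo1Δ* values are RPM, summing to 1000000 up to T1. The authors' WT median is also deposited in RPM, and their WT coefficient of variation is a deposited score in percent of the mean. The deposited columns of the authors' own comparison (difference, ratio and *p*-value), their means and 3 columns of single WT libraries were not used.

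Reads per position were read from the step between low values (tolerance 0.1 reads), where 99.9% or more were whole. With a single group of samples, a count test has no contrast. Intervals and floors cover counting error only. Log2 ratios of single positions used a pseudocount of 1 RPM, and those of summed occupancy used none. Named positions were the 8 highest of each strain, the 8 largest rises and falls in RPM and the 4 largest by log2 ratio among raised and lowered positions; windows and troughs were named by size, and other positions (peaks, the start of 18S, neighbours, CGA and GGU) after their values were seen. The members, groupings and rules were chosen with earlier results of these data known. Alternatives were other scalings, pseudocounts, minimums, folds, peak and trough rules and windows and each replicate left out. Python 3.11.15, numpy 2.4.6, pandas 2.3.3, scipy 1.17.1 and matplotlib 3.10.9 were used, and the calculations were tested on simulated data.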

Additional observations from a re-analysis of the deposited data

How the results depend on the processing

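Scaling moved the totals. The named raised and lowered positions differ from WT by more than these alternatives can move them, so their directions could not turn. The summed log2 ratio was -0.0239 when scaled to 18S, -0.193 without the 1% highest positions and -0.328 when scaled to the median position, where the median of all positions shifted by 0.15, -0.015 and -0.15. Lowered positions then numbered 41 with the 18S scaling and 116 with the median scaling. Windows called higher were 20.8%, 4.17% and 0% and, with the 18S scaling, 16.7% were lower. Windows of 100 gave 0% higher and 83.3% lower. A lower fold threshold gave 73 raised and 180 lowered positions, and a fold of 2 gave 20 and 11. A peak height of 2 gave 34 peaks in *hmo1Δ*, 36 in WT and 24 shared, so the strains were then nearly equal in number, and a height of 4 gave 10 in *hmo1Δ*, 13 in WT and 7 shared. With troughs set at the median divided by 4 there were 0 in *hmo1Δ* and 0 in WT, and divided by 2 there were 6 in *hmo1Δ* and 8 in WT.

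Leaving out 1 replicate gave summed log2 ratios of -0.184 to -0.169, 47 to 58 raised positions and 4.17% to 16.7% of windows higher. The lowest of these window shares was without replicate 1 and the highest without replicate 3. Raised and lowered positions grew in number each time, since fewer replicates had to pass the rule. Window calls also depend on the SD between replicates, so their number could fall as well as grow. The cause of the other shifts was not tested. No paired analysis was possible because the samples form a single group. Depth limits the lowest positions, where 20 to 44 reads were counted.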
